A study of Mus musculus with 3 samples.

Results

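The genes described here encode the extracellular matrix: 44 collagen chains, 11 laminin chains and 18 other matrix proteins (nidogens, fibulins, fibrillins, elastin, fibronectin, perlecan, small leucine-rich proteoglycans, Sparc, periostin and dermatopontin). They were chosen by gene symbol and number 73 of the 24346 genes in the table. RNA came from the initial segment and caput, the first regions of the mouse epididymis, at 14 weeks of age. All 3 libraries carry the genotype Ovch2-/- and no treatment, so the design has 1 group. Without control tissue in the analysis, nothing here compares the knockout with wild type, and no group test could be made. Whether each library is a different animal is not stated, and the spread may be technical. The labels also leave out how the allele was made and whether animals were pooled.

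The extracellular matrix of a tubular organ has a basement membrane and an interstitial compartment. The basement membrane is a thin sheet beneath the epithelium and around smooth muscle and vessels, in which type IV collagen and laminin networks are held together by nidogen and perlecan. Outside it, fibroblasts and smooth muscle lay down fibrils of collagens I, III and V, type VI collagen microfilaments, elastic fibres and proteoglycans. In the epididymis this matrix surrounds each loop of the coiled duct, together with layers of contractile smooth muscle.

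Values are FPKM, fragment numbers normalized for transcript length and library size, as the authors deposited them, so levels can be compared between genes per length. A gene is called detected here when its mean over the 3 libraries was at least 1 FPKM, which held for 13073 genes and for 59 of the 73 matrix genes. The libraries summed to 729695, 745294 and 814000 FPKM over all genes, and fragment numbers are not known. Ovch2 itself stood at 4.50, 80.2 and 77.2 FPKM in replicates 1, 2 and 3, which does not check the labels, because the deleted exons are not known. The 9 initial segment markers were all lowest in replicate 1, where they summed to 2189 FPKM against 19524 and 17977 FPKM in replicates 2 and 3. Of the 9 caput markers, 7 were lowest in replicate 1, against 41.3% of all detected genes. Lcn9, a lipocalin gene, was listed at 0 in replicate 1. Replicate 1 therefore stands apart from the other libraries in these markers, and the 2-fold counts are also given without it. It differed in markers of other cell types too, as given below.

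Most matrix genes, like most genes, differed by less than 2-fold between the 3 libraries. Of the 59 detected, 4 varied at least 2-fold between the highest and the lowest library on the FPKM + 1 scale, against 10.8% of all detected genes (1409 of 13073). Among them were Col6a4, Col23a1 and Dpt. Without replicate 1 the count was 1 (Dpt), against 1.76% of all genes detected between replicates 2 and 3. With a pseudocount of 0.1 it was 9, against 15.6% of all detected genes. Without replicate 3 it was 1 (Col6a4), and the share of all genes was not computed. The median coefficient of variation over the libraries was 18.5% for the detected matrix genes and 14.9% for all detected genes. The matrix genes summed to 938, 970 and 841 FPKM in replicates 1, 2 and 3, or 916 ± 66.8 FPKM (SD, n = 3). They took 0.129%, 0.130% and 0.103% of the total. Their median level was 2.53, 2.50 and 2.26 on the log2(FPKM + 1) scale, against 1.26, 1.33 and 1.32 over all genes, detected or not. Among detected genes the direction was reversed, with 2.96, 2.91 and 2.64 for matrix genes against 3.49, 3.55 and 3.53 for all.

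A few genes held much of the matrix RNA. Sparc, which encodes a collagen-binding glycoprotein of basement membranes, was the most abundant at 138, 151 and 126 FPKM, or 139 ± 12.4 FPKM (SD, n = 3). Dcn, encoding decorin, a proteoglycan that binds collagen fibrils, followed at 97.5, 103 and 108 FPKM. Next came Bgn, encoding the related proteoglycan biglycan, at 79.7, 70.7 and 64.2 FPKM. Lamb2, a laminin beta chain gene, stood at 58.4, 63.6 and 51.8 FPKM, and Col18a1, the gene of a basement membrane collagen and source of endostatin, at 55.2, 47.3 and 44.7 FPKM. The order of these 5 genes was the same in each library. The ranges of Sparc, Dcn and Bgn did not overlap, whereas those of Lamb2 and Col18a1 did. Together the 5 genes took 45.8% of the summed mean FPKM of the matrix genes. In all, the mean reached 10 FPKM for 20 of the 73 genes, and the median over the detected ones was 6.16 FPKM against 10.7 FPKM for all detected genes.

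In the basement membrane, type IV collagen was led by Col4a1 and Col4a2, which encode the chains of the network present in nearly all basement membranes. Col4a1 stood at 19.6, 26.4 and 19.4 FPKM and Col4a2 at 17.2, 23.4 and 17.0 FPKM. Both were highest in replicate 2 and nearly equal in the other libraries. Their ratio hardly moved: the log2 ratio of Col4a1 to Col4a2 was 0.19, 0.17 and 0.19, a mean of 0.18 ± 0.01 (SD, n = 3), the smallest SD of the 6 gene pairs compared.

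The genes lie head to head on mouse chromosome 8. In RefSeq (GRCm38.p6, the assembly with mm10 coordinates), Col4a1 runs from 11198423 to 11312889 and Col4a2 from 11312805 to 11449287, so their annotated spans overlap by 85 bases. Their promoter windows are shown because both genes start from the same stretch of DNA. Each window covers 250 bases before and 50 after the annotated start and is read 5′ to 3′ on the gene's own strand. The start used for Col4a1, 11312826, lies inside its annotated span. Capitals mark the 78 bases that both windows hold (chr8:11312777-11312854), which are read from opposite strands.
Col4a1 (chr8:11312777-11313076, minus strand): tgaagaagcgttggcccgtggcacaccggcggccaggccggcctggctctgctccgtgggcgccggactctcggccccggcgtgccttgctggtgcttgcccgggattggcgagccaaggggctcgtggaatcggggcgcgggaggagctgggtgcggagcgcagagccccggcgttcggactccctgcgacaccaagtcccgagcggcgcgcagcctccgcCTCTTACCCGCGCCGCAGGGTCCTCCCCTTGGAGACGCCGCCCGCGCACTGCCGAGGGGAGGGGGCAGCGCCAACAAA
Col4a2 (chr8:11312555-11312854, plus strand): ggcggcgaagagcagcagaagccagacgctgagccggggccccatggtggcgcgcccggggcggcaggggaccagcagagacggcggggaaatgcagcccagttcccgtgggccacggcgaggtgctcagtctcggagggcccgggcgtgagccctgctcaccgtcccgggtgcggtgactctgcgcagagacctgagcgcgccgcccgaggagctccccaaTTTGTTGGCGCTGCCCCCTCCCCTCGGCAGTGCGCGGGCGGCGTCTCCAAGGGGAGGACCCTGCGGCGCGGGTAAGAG
The windows were 74.0% and 73.7% G and C. Neither held TATAAA on either strand, and both held CCAAT and GGGCGG.

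The other type IV genes are also arranged as head-to-head pairs. Col4a3 and Col4a4, whose chains form the network of the kidney filter together with that of Col4a5, were low and even. Col4a3 stood at 3.26, 2.99 and 3.11 FPKM and Col4a4 at 3.31, 3.62 and 3.03 FPKM. Their annotated spans on chromosome 1 overlap by 114 bases, and the log2 ratio was -0.09 ± 0.17 (SD, n = 3), within its spread of 0. Without replicate 2 it was 0.01. Col4a5 (8.42, 7.23 and 6.17 FPKM) and Col4a6 (8.56, 5.57 and 4.07 FPKM) lie 1274 bases apart on the X chromosome. Both were highest in replicate 1 and lowest in replicate 3, but Col4a6 spread more widely, and their log2 ratio ran from -0.02 in replicate 1 to 0.60 in replicate 3, with a mean of 0.32 and of 0.49 without replicate 1.

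**Figure D1:**
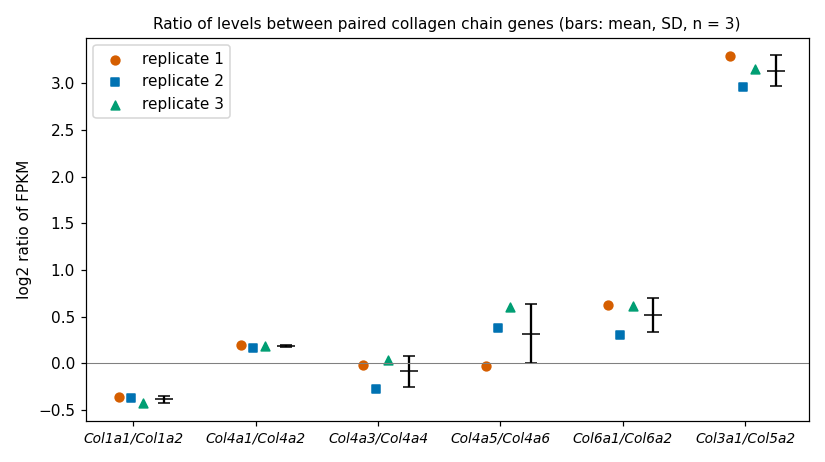
Log2 ratio of FPKM between the genes of 6 collagen pairs in each library, with the mean and SD (n = 3) in black. Col4a1/Col4a2 and Col1a1/Col1a2 are tightly grouped, and Col4a5/Col4a6 ranges from -0.02 to 0.60.

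Laminins are heterotrimers of an alpha, a beta and a gamma chain, and all 11 chain genes were detected. Among the alpha chains Lama5, the main alpha chain of mature epithelial and vascular basement membranes, was highest at 17.4, 13.6 and 11.4 FPKM. Lama1, a chain of early embryonic and some epithelial basement membranes, stood at 6.79, 3.10 and 4.17 FPKM. Lama2, the alpha chain around muscle fibres, had 4.39, 3.71 and 3.06 FPKM. Lama3, a chain of the hemidesmosome laminin, had 2.55, 3.39 and 2.36 FPKM, and Lama4, an endothelial and muscle chain, had 2.0, 1.78 and 1.66 FPKM. Lama5 was above the other alpha chain genes in every library, while the ranges of Lama1 and Lama2 overlapped.

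Among the beta chains Lamb2 exceeded Lamb1 in every library. Lamb1 stood at 12.3, 8.19 and 7.78 FPKM, and the Lamb2 to Lamb1 ratio was 4.74, 7.77 and 6.66. Of the gamma chain genes, Lamc1, the gamma chain of most laminins, stood at 4.89, 7.12 and 5.23 FPKM, and Lamc3 at 5.78, 5.86 and 4.12 FPKM. The ranges of Lamc1 and Lamc3 overlapped.

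Lama3 and Lamb3 encode chains of a laminin that anchors stratified and basal cells at hemidesmosomes. Lamb3 was lowest in replicate 1 at 4.95 FPKM, against 7.72 and 6.99 FPKM, whereas Lama3 was lowest in replicate 3. Col17a1, the transmembrane collagen of hemidesmosomes, stood at 9.31, 8.16 and 7.02 FPKM, and Col7a1, the collagen of anchoring fibrils, at 16.3, 16.4 and 13.4 FPKM. Of the 6 basal cell markers, Krt5 was the most abundant at 84.8, 48.8 and 52.9 FPKM and Itgb4, a hemidesmosome integrin, the least at 9.39, 7.88 and 6.30 FPKM. The list summed to between 145 and 183 FPKM, and 3 of its 6 genes were lowest in replicate 1, against 41.3% of all detected genes. Its part in the Lamb3 value was not tested.

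None of the 3 linkers of the basement membrane varied 2-fold, against 10.8% of all detected genes. Hspg2, encoding perlecan, stood at 10.9, 12.2 and 8.38 FPKM, Nid1, encoding nidogen 1, at 7.22, 7.57 and 6.34 FPKM, and Nid2 at 4.58, 3.90 and 2.93 FPKM. All 3 genes were lowest in replicate 3, against 25.3% of all detected genes. Of the multiplexins, the collagens with many interruptions, Col15a1 had the smallest relative spread of any detected matrix gene, at 4.79, 4.88 and 4.91 FPKM.

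Among interstitial fibrillar collagens 8 of 11 genes were detected, and the same 3 led in every library. Col1a2 stood at 32.9, 38.7 and 31.2 FPKM, Col1a1 at 25.5, 30.0 and 23.2 FPKM, and Col3a1 at 19.2, 22.9 and 18.0 FPKM. Each was highest in replicate 2 and lowest in replicate 3, and the order Col1a2, Col1a1, Col3a1 held in each library. Type I collagen contains more alpha 1 than alpha 2 chains, whereas the Col1a1 to Col1a2 ratio of RNA levels was 0.777, 0.775 and 0.744, or -0.39 ± 0.04 on the log2 scale (SD, n = 3). FPKM depends on the annotated length, so the ratio of transcripts carries the error of both lengths.

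Type V collagen, which starts type I fibrils, was far lower. Col5a1 stood at 4.19, 3.65 and 2.78 FPKM, and Col5a3 at 1.78, 1.37 and 1.44 FPKM. Col5a2 (1.96, 2.93 and 2.03 FPKM) lies 24624 bases from Col3a1 on chromosome 1, yet the neighbours differed widely in level, with a log2 ratio of Col3a1 to Col5a2 of 3.14 ± 0.16 (SD, n = 3). The cartilage collagen genes were low. Col11a1 was detected at 1.14, 1.56 and 1.08 FPKM, whereas Col2a1, the main cartilage fibril gene, had 0.0135 and 0.165 FPKM and was listed at 0 in replicate 3. Col24a1 had the lowest mean of the fibrillar genes, 0.0228 FPKM. Col10a1, a gene of hypertrophic cartilage, stayed between 0.0266 and 0.0609 FPKM.

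Of the fibril-associated collagens, which coat fibrils and link them to other matrix, Col16a1 was highest at 19.3, 24.7 and 19.5 FPKM. Col14a1 (5.17, 8.20 and 6.03 FPKM) and Col12a1 (5.46, 6.54 and 3.47 FPKM) followed, and Col20a1 was the lowest detected at 1.94, 1.56 and 1.03 FPKM. The other 5 genes of this group in the table had means from 0.00287 to 0.683 FPKM. Col8a2, a short-chain collagen of vessel and corneal membranes, stood at 7.26, 6.54 and 4.68 FPKM, and Col8a1 at 1.09, 1.19 and 0.835 FPKM.

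Type VI collagen gave the widest difference of the matrix genes. The chain genes of the classical heterotrimer each varied by less than 2-fold. Col6a1 stood at 47.4, 34.2 and 30.5 FPKM, Col6a2 at 30.7, 27.6 and 19.9 FPKM, and Col6a3 at 6.96, 4.64 and 3.77 FPKM. All 3 were highest in replicate 1 and lowest in replicate 3. Col6a4, an alternative chain, did the reverse, with 0.396 FPKM in replicate 1 against 22.2 and 32.0 FPKM in replicates 2 and 3. On the FPKM + 1 scale the highest library was 23.6-fold above the lowest. In replicate 1 it alone of the 59 detected matrix genes lay 2-fold or more under the other libraries, against 4.07% of all detected genes. No matrix gene did so in replicate 2 or 3, against 0.757% and 0.153% of all. Between replicates 2 and 3 alone, Col6a4 did not reach 2-fold, and without replicate 3 its mean fell from 18.2 to 11.3 FPKM.

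Col6a5 and Col6a6, further alternative chains, lie beside Col6a4 on chromosome 9 in the same orientation. Col6a5 was also lowest in replicate 1, at 0.462 FPKM against 1.91 and 0.870 FPKM, and its mean of 1.08 FPKM became 0.666 FPKM, below detection, without replicate 2. Col6a6 had 0.0370 and 0.0225 FPKM and was listed at 0 in replicate 3. Col6a4 spans 105990318 to 106096828 and Col6a5 spans 105856070 to 105962463, with 27854 bases between them. The promoter windows of Col6a4 and Col6a5 are shown because the neighbours differ so widely in level in replicates 2 and 3. In replicate 1 they were close, at 0.396 and 0.462 FPKM. The starts used, 106096691 for Col6a4 and 105960643 for Col6a5, lie inside the annotated spans. Capitals mark CCAAT or GGGCGG on either strand.
Col6a4 (chr9:106096642-106096941, minus strand): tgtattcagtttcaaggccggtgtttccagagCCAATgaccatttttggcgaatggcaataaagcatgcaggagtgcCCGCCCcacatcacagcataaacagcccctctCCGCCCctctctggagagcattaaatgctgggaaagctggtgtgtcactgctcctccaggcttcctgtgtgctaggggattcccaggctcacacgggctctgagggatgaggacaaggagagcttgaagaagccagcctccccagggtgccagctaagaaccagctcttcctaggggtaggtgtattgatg
Col6a5 (chr9:105960594-105960893, minus strand): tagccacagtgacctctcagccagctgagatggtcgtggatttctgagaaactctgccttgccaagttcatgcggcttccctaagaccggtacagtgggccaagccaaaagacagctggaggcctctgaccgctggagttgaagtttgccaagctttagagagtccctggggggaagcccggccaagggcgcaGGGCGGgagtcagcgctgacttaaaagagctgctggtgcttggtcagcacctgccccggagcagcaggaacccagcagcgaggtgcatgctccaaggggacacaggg
Col6a4 held CCAAT and GGGCGG, Col6a5 held GGGCGG, and neither held TATAAA. The motifs were counted on both strands in 1 window for each of 27025 genes. TATAAA was found in 7 of the 52 matrix genes with a window (13.5%), in 14.2% of all windows and in 6.96% of those of detected genes. CCAAT was found in 32.7%, 37.9% and 38.5%, and GGGCGG in 59.6%, 35.9% and 64.1%. The motifs do not overlap each other in sequence.

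Col6a4 was lowest in the same library as the epithelial markers of the initial segment, all 9 of which were lowest in replicate 1 (41.3% of all detected genes were), with sums from 2189 to 19524 FPKM. The summed markers were highest in replicate 2 and Col6a4 in replicate 3. The 9 caput markers summed to 64043, 84558 and 87885 FPKM in replicates 1, 2 and 3, in the order of Col6a4. That order rests on Lcn5, which was highest in replicate 1, at 21673 FPKM against 4290 and 13581 FPKM. Without Lcn5 the sum would be highest in replicate 2. Singly, 6 of these caput markers were highest in replicate 2 and 2 in replicate 3. Adam28, an ADAM protease gene of the initial segment list, stood at 0.190, 915 and 718 FPKM. Lists of other cell types were often lowest in replicate 1 too. This held for 6 of 6 germ cell, 7 of 8 macrophage, 7 of 9 endothelial and 6 of 10 fibroblast markers. It held for 3 of 6 basal cell, 2 of 6 pericyte and 1 of 9 smooth muscle markers. Col6a4 is thus not matched to the epithelial lists alone. The part of tissue make-up in the Col6a4 value was not tested. In bulk tissue, fewer cells of a type and less RNA per cell cannot be told apart.

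**Figure D2:**
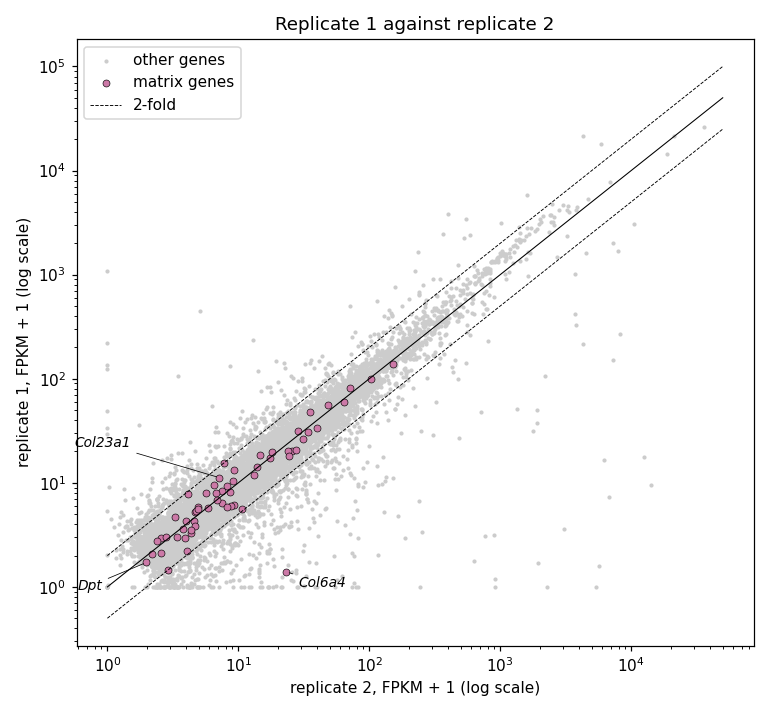
FPKM + 1 of each detected gene in replicate 1 against replicate 2 (both log scales), with matrix genes in pink, all other genes in grey, equality as a solid line and 2-fold as dashed lines. Col6a4 is far below the lower dashed line, among grey points that are near the bottom axis. Dpt is named as well, although its 2-fold difference is with replicate 3.

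The transmembrane collagen gene Col23a1 stood at 10.2 FPKM in replicate 1 against 6.16 and 3.80 FPKM in replicates 2 and 3, a span of 2.34-fold on the FPKM + 1 scale. Col13a1, another transmembrane collagen gene, had 4.89, 3.91 and 3.43 FPKM. Dpt, encoding the small matrix protein dermatopontin, was the only 1 of the 59 at least 2-fold above both others in replicate 3, against 0.314% of all detected genes. None was above both others in replicate 1 or 2, against 1.29% and 0.237% of all. Dpt stood at 0.716, 0.983 and 3.19 FPKM, so its mean over the libraries was 1.63 FPKM, not far above the detection limit. Without replicate 3 the mean was 0.849 FPKM, below detection, and after rescaling the libraries to equal totals it was no longer 2-fold above both. Leaving out replicate 1, Dpt alone of the matrix genes varied at least 2-fold, against 1.76% of all genes detected between replicates 2 and 3.

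None of the 6 detected elastic fibre genes varied 2-fold, against 10.8% of all detected genes. Eln, encoding elastin, stood at 13.3, 12.9 and 10.6 FPKM. Fbn1, encoding the fibrillin of adult microfibrils, stood at 1.99, 2.37 and 1.63 FPKM, the lowest detected of the group, and Fbn2, a largely embryonic fibrillin, was below detection at 0.118, 0.257 and 0.130 FPKM. The fibulins, which link elastic fibres and basement membranes, were led by Fbln1 at 7.06, 5.70 and 5.31 FPKM, followed by Fbln2 at 2.82, 3.63 and 3.80 FPKM. Fbln5 and Fbln7 had means of 2.65 and 2.64 FPKM. In each library Eln stood above every other gene of this group.

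Of the small leucine-rich proteoglycans, Ogn, encoding osteoglycin, stood at 18.6, 17.1 and 18.6 FPKM, with the caution that its span overlaps the protein-coding gene Cenpp. Dcn and Ogn were among the steadiest matrix genes, with coefficients of variation of 4.91% and 4.65%. Lum, encoding lumican, was much lower and less even, at 1.23, 3.09 and 1.53 FPKM. Of the glycoproteins, Postn, encoding periostin, stood at 30.0, 32.9 and 28.5 FPKM. Fn1, encoding fibronectin, stood at 4.62, 9.64 and 5.68 FPKM, highest in replicate 2 like Col1a1, Col3a1 and Col4a1.

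The 14 matrix genes that were not detected had means from 0.00287 FPKM (Col19a1) to 0.698 FPKM (Col11a2), and 13 of them encode collagens. None was listed at 0 in all 3 libraries, and 4 were listed at 0 in at least 1, namely Col19a1, Col26a1, Col2a1 and Col6a6. In a table of this kind a 0 may also be an estimate that failed. Of the 73 genes, 36 overlap another annotated gene, 8 of them a protein-coding one. These 8 are Col4a1, Col4a2, Col4a3, Col4a4, Col9a3, Col10a1, Nid2 and Ogn, so the caution given for Ogn holds for each. The strand setting of the quantification is not stated.

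A small common shift stood beside these single genes. Of the 59 detected matrix genes, 40 were lowest in replicate 3 (67.8%), against 25.3% of all detected genes. In replicate 1, 14 were lowest, against 41.3% of all, and in replicate 2, 5 were lowest, against 33.5%. The highest library was replicate 1 for 25 genes (38.2% of all), replicate 2 for 28 (34.4%) and replicate 3 for 6 (27.3%). The difference was small: for each gene the deviation from its 3-library mean was taken, and the median of these deviations over the 59 genes was 0.04, 0.09 and -0.15 on the log2(FPKM + 1) scale in replicates 1, 2 and 3. Over all detected genes the medians were -0.01, 0.00 and 0.01. The median over all 73 genes was 0.02, 0.06 and -0.13. The median deviation in replicate 3 was below 0 in each of the 15 groups of matrix genes, and it was the lowest of the 3 libraries in 14 of them, the exception being the adhesive and matricellular glycoproteins. The genes share libraries and cells, so this count is a description. The median deviation in replicate 3 over all 73 genes was -0.05 without replicate 2 and -0.21 with libraries rescaled to equal totals. That rescaling lowers every value of replicate 3: 50 matrix genes (84.7%) were then lowest there, against 44.4% of all.

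**Figure D3:**
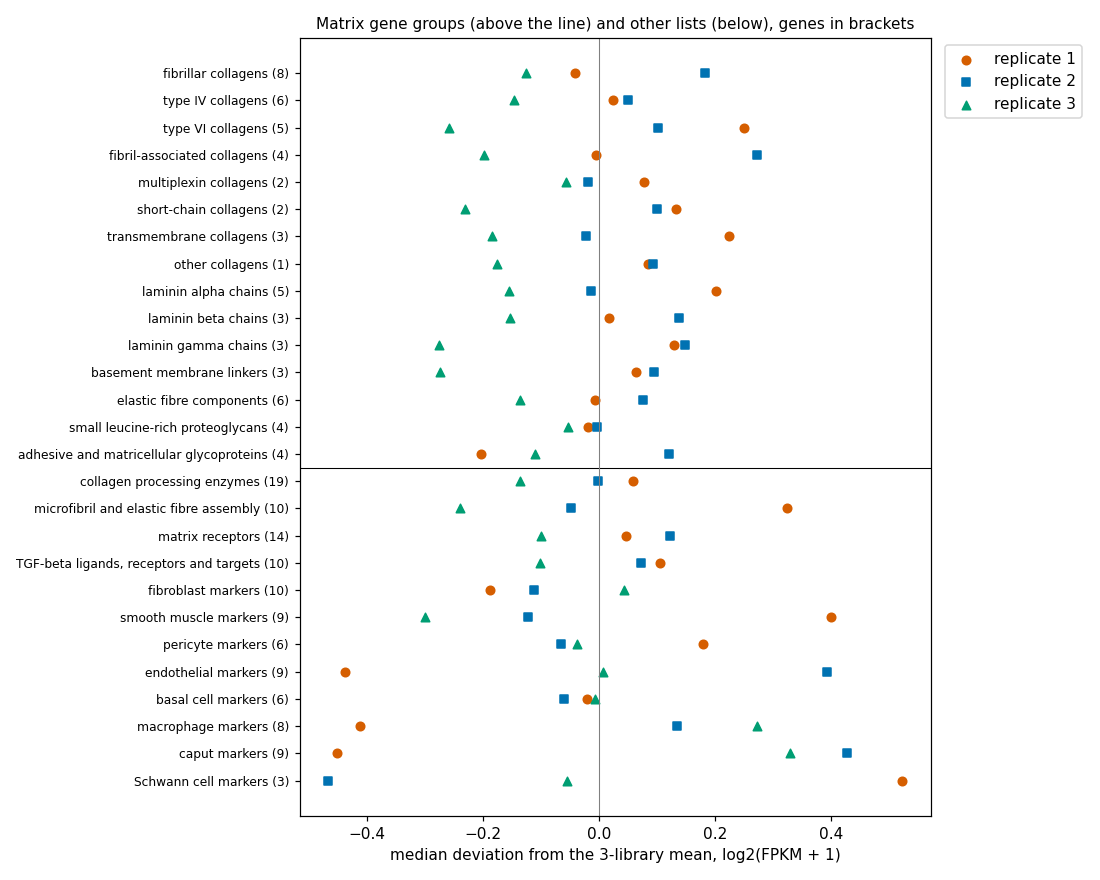
Median deviation of each gene group from its own 3-library mean (log2(FPKM + 1)) in each library, with matrix groups above the line, other lists below it and the number of detected genes in brackets. Replicate 3 is below 0 in all 15 matrix groups and in most other lists shown, from smooth muscle (-0.30) to basal cell (-0.01). It is above 0 in the caput (0.33), macrophage (0.27), fibroblast (0.04) and endothelial (0.01) lists. The initial segment, germ cell and mesothelial lists are left out because their deviations are wider than the axis.

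Transcript length and the smooth muscle and fibroblast markers were set beside this shift. Matrix transcripts are long: the longest annotated transcript had a median of 5829 bases over the detected matrix genes and 3031.5 bases over all detected genes that have one. Among all genes, the share lowest in replicate 3 was 15.0% up to 2000 bases, 26.6% from there to 4000, 32.8% to 6000 and 32.6% above. Among matrix genes it was 0 of 2, 7 of 9, 16 of 21 and 17 of 27. At over 6000 bases the median deviation in replicate 3 was -0.14 for the matrix genes and -0.02 for all genes. The 9 smooth muscle markers had median deviations of 0.40, -0.12 and -0.30, so they were below 0 like the matrix genes in replicate 3 but had the opposite sign in replicate 2. Of these markers 8 were lowest in replicate 3, against 25.3% of all detected genes. Acta2, the smooth muscle actin gene, was one of them at 306, 193 and 178 FPKM. The exception was Actg2, enteric smooth muscle actin, at 49.9, 1341 and 1316 FPKM, without which the list summed to 702, 460 and 415 FPKM. The 10 fibroblast markers, which include Dcn, Lum and Dpt, had median deviations of -0.19, -0.11 and 0.04. Of these 1 was lowest in replicate 3. The parts of length, muscle and fibroblast content in the shift were not tested.

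**Figure D4:**
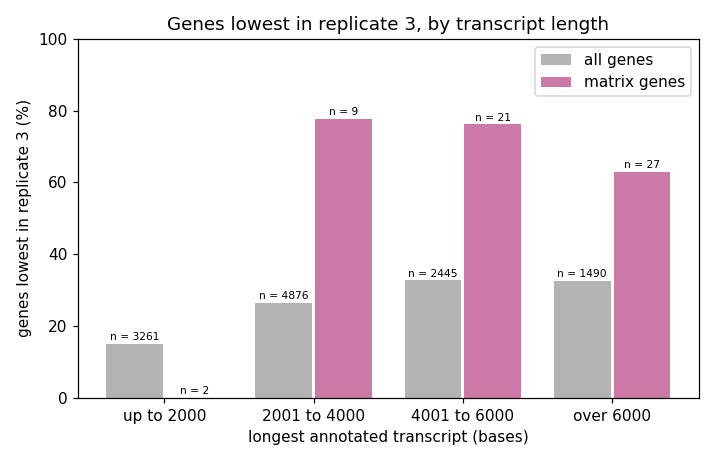
Percent of detected genes whose lowest library was replicate 3, by longest annotated transcript, for all genes (grey) and matrix genes (pink), with the number of genes above each bar. The matrix genes are above all genes in the 3 longer classes, and the shortest class holds only 2 matrix genes.

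The machinery that makes and receives the matrix was examined by 3 further lists. Of 24 collagen processing genes 19 were detected, 2 varied at least 2-fold and 11 were lowest in replicate 3, against 10.8% and 25.3% of all detected genes. P4ha2, a prolyl hydroxylase subunit gene, was one of the varying genes and stood at 3.60, 73.8 and 84.5 FPKM, in the same order as Col6a4. The other was Loxl3, a lysyl oxidase-like gene, at 2.02, 7.63 and 5.74 FPKM. Serpinh1, the collagen chaperone gene, stood at 40.1, 33.2 and 31.5 FPKM, P4ha1, the other main hydroxylase subunit gene, at 5.23, 3.85 and 3.16 FPKM, and P4ha3 at or under 0.0361 FPKM in each library.

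Of 11 genes for microfibril and elastic fibre assembly 10 were detected. None varied 2-fold and 7 were lowest in replicate 3, against 10.8% and 25.3% of all detected genes. Ltbp3, a gene for a latent TGF-beta binding protein, was highest at 107, 82.5 and 71.3 FPKM, well above Fbn1, while Emilin2 had a mean under 1 FPKM. Of 19 matrix receptor genes 14 were detected, 2 varied at least 2-fold and 6 were lowest in replicate 3, again against 10.8% and 25.3%. Without replicate 1, none of the genes of these 3 lists varied 2-fold. Itgb1, the shared beta chain of most matrix integrins, was the most abundant at 73.2, 89.0 and 83.3 FPKM, and Itga2, a collagen-binding alpha chain, the least at 0.191, 0.368 and 0.266 FPKM. Ddr1, an epithelial collagen receptor kinase gene, stood at 56.3, 22.0 and 24.7 FPKM and Itga6, a laminin receptor gene, at 4.48, 11.6 and 10.2 FPKM. Ddr1 was thus highest, and Itga6 lowest, in replicate 1.

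Markers of most cell types that could make this matrix were detected. All 10 fibroblast markers were detected. Of these 4 varied at least 2-fold and 6 were lowest in replicate 1, against 10.8% and 41.3% of all detected genes. Their median deviation was -0.19 in replicate 1 and 0.04 in replicate 3. They went both ways: Pdgfra stood at 15.3, 43.4 and 32.9 FPKM and Thy1 at 14.7, 7.5 and 6.43 FPKM. Without replicate 1, 1 of the 10 varied 2-fold. Dcn, Lum and Dpt belong to this list too. All 9 endothelial markers were detected and 7 were lowest in replicate 1, again against 41.3%. Among these 7 was the least abundant, Tek (0.748, 2.13 and 1.43 FPKM). The most abundant, Egfl7, was instead lowest in replicate 3 (41.9, 39.2 and 38.3 FPKM). The 6 pericyte markers summed to between 21.4 and 25.4 FPKM, from Abcc9 at a mean of 1.24 FPKM to Notch3 at 8.44 FPKM. The adipocyte markers were at or near 0, summing to at most 1.30 FPKM, and so were the mesothelial markers apart from Upk1b (13.0, 88.3 and 70.7 FPKM).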

How the data were processed

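The authors deposited 1 table of FPKM values for 3 libraries, called normalized per the file headers. Per the submitters' processing notes, TopHat2 2.1.1, Cufflinks 2.2.1 and the build mm10 were used. Per the labels' protocols, TRIzol RNA went into stranded TruSeq mRNA libraries. Annotation, strand setting, filters and scaling: not given in the sources used here. Steps between low values (under 0.1 FPKM) gave depth ratios of 1.22 (replicate 1 to 2) and 1.40 (replicate 1 to 3) but no absolute depth, so no counting interval was computed.

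Columns were matched to samples by name. Matrix genes were chosen by symbol. Levels were analysed as log2(FPKM + 1), with a minimum mean of 1 FPKM and a 2-fold limit. With 1 group no test was made. All 73 gene identifiers matched RefSeq (GRCm38.p6), which supplied coordinates and promoter sequences (52 of 73 genes). The longest GENCODE M21 coding transcript, in the same assembly, gave lengths. The call of a library 2-fold below both others was tried on simulated data, only for drops larger than 2-fold in well-expressed genes. That trial does not check changes near 2-fold, genes of low level or the highest-to-lowest rule. The members, lists and tests were chosen with earlier results of these data known. Genes named are the 3 highest and the lowest detected of each matrix group, those varying 2-fold, the paired chains, and the highest and lowest of each other list; others named were chosen after their values were seen, and a few that the rule names are not reported here. Alternatives covered pseudocount, minimum mean, fold, scaling and leaving out each replicate. Python 3.11.15, numpy 2.4.6, pandas 2.3.3, scipy 1.17.1 and matplotlib 3.10.9 were used.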

Additional observations from a re-analysis of the deposited data

How the results depend on the processing

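The matrix genes that varied at least 2-fold between libraries numbered 4. They numbered 9 with a pseudocount of 0.1 (15.6% of all detected genes) and 14 at 1.5-fold (27.2% of all). When each replicate was left out they numbered 1 to 4, where fewer libraries also allow fewer differences. The share of all genes was 1.76% without replicate 1 and was not computed without the others. Matrix genes above both other libraries in replicate 1 numbered 0, but 3 at 1.5-fold. They numbered 1 with a pseudocount of 0.1, with median-of-ratios scaling and with rescaling to the same total. In replicate 2 they numbered 0, but 1 with a pseudocount of 0.1 and 3 at 1.5-fold. In replicate 3 the 1 gene above both became 0 with rescaling. The share of all genes above both was not computed under these alternatives, so the changes cannot be read as particular to matrix genes. Matrix genes below both others were unchanged in number under each alternative run. Of the matrix genes 57 to 61 were detected, apart from 50 with a limit of 2 FPKM.

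Leaving the 10 most abundant genes out of the total raised the matrix share to 0.152%, 0.160% and 0.126% in replicates 1, 2 and 3. The median level was 2.29, 2.25 and 1.96 with a pseudocount of 0.1 and 2.96, 2.91 and 2.64 over detected genes, by construction. The median deviation in replicate 1 ran from -0.017 without replicate 3 to 0.048 without replicate 2, and it was 0.058 with rescaling. That in replicate 3 ran from -0.11 to -0.05 on leaving out a library, and it was -0.21 with rescaling. Chosen after seeing the data, the count of genes lowest in replicate 3 was 42 with median-of-ratios scaling (26.9% of all detected genes), 50 with rescaling (44.4%), 49 without replicate 1 (50.7%) and 43 without replicate 2 (48.0%). The log2 ratio of Col4a3 to Col4a4 ran from -0.15 to 0.0080 when a replicate was left out, and that of Col3a1 to Col5a2 was 2.68 with a pseudocount of 1. The cause of these changes was not tested otherwise. The means of 86 genes stayed within 1 SD under both scalings. That says little, because the scalings shifted the median detected gene of a library by only -0.085 to 0.059 in log2. The SD used is that between the libraries. Leaving out a replicate moved the means of 12 of the 86 genes by over 1.5 times, 5 of them matrix genes (Col26a1, Col28a1, Col6a4, Col6a5 and Dpt). No paired analysis was possible because the labels give 1 group. Absolute depth is unknown, which limits what can be said of genes near 0.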

Other observations

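TGF-beta signalling genes, which encode a main inducer of matrix synthesis and its receptors, were present in the same libraries. Of the 11 listed genes that were measured, 10 were detected. Of these 1 varied at least 2-fold (none without replicate 1) and 5 were lowest in replicate 3, against 10.8% and 25.3% of detected genes. Tgfb1, the ligand gene that varied, stood at 25.6, 52.3 and 37.6 FPKM, whereas Tgfb2 was highest in replicate 1 at 5.16 FPKM against 2.67 and 2.89 FPKM. Tgfbr2, a receptor gene, stood at 5.11, 10.5 and 9.48 FPKM, in the order of Tgfb1.

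Other cell types were represented unevenly. All 8 macrophage markers were detected and 7 were lowest in replicate 1, against 41.3% of all detected genes. C1qa, a complement gene, stood at 37.6, 54.1 and 61.6 FPKM and Mrc1, the mannose receptor gene, at 1.22, 1.58 and 2.61 FPKM. The 6 germ cell markers summed to 0.301 FPKM in replicate 1 against 161 and 220.0 FPKM, and Akap4, a sperm tail gene, was listed at 0 in replicate 1. Of the 5 Schwann cell markers 3 were detected, and S100b stood at 18.5, 2.47 and 3.99 FPKM, highest in replicate 1, while Sox10, the defining transcription factor gene of that list, stayed under 1 FPKM at 0.255, 0.217 and 0.107 FPKM.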
